A study of Mus musculus with 6 samples.

Results

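Genes for 6 neural adhesion proteins stood on the authors' deposited list of probe sets enriched in muscle spindle (MS) over Golgi tendon organ (GTO) proprioceptive neurons: Ncam2, Lrrc4c, Cntn2, Cntn3, Tenm3 and Tenm4. They were found as every listed probe set that carries one of these symbols, or the older names Odz3 and Odz4. This gave 6 probe sets, 1 per gene, of 626 on the list and 45101 on the array. The genes were chosen by the MS over GTO fold and p-value of these same arrays, since the list keeps what reached 5-fold with p below 0.08. All differences between MS and GTO neurons below are therefore descriptions of values that chose these genes, with no test of their own.

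Neurons came from dorsal root ganglia of mice that carried Egr3::WGA-cherry together with PV:Cre and the Cre-dependent reporter Thy1-lsl-YFP, on a mixed C57bl/129sv background, of both sexes, at postnatal days 7 to 10. All 6 samples share these 3 alleles. MS neurons were sorted as positive for both Cherry and YFP (3 pools of about 1250 neurons), and GTO neurons as positive for YFP without Cherry (3 pools of about 725 neurons). The sort thus rests on the Egr3 reporter, and the labels call each fraction enriched rather than pure. Sorts were pooled, and the RNA was amplified before hybridisation of 1 array per pool. The number of neurons per pool goes with the group. Its part in a difference, through input or amplification, cannot be told apart from that of the cell type.

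Cell adhesion proteins on growing and mature axons recognise partners on other membranes, and they take part in bundling axons, choosing targets and building synapses and nodes. Contactins are immunoglobulin proteins held in the membrane by a lipid anchor. Teneurins are very large single-pass proteins that bind each other and the latrophilin receptors across the cleft. Ncam2 is an immunoglobulin adhesion molecule of the NCAM family, and Lrrc4c (NGL-1) is a leucine-rich repeat protein that binds netrin-G1. Proprioceptive axons reach both the spinal cord and a muscle receptor organ at these ages.

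RefSeq promoter windows, 250 bases before to 50 after a gene's start on GRCm38.p6, were matched for all 6 genes, with 7 windows since Tenm4 has a pair. Of these, 3 are shown because they hold the only motif matches and both ends of the base composition. The strand is that of the gene, and capitals in the Lrrc4c window mark an ETS core on the printed strand and a RUNX core on the opposite strand. The windows are chr2:96317919-96318218 on the + strand for Lrrc4c, chr16:81200447-81200746 on the + strand for Ncam2 and chr6:102464618-102464917 on the - strand for Cntn3.
Lrrc4c: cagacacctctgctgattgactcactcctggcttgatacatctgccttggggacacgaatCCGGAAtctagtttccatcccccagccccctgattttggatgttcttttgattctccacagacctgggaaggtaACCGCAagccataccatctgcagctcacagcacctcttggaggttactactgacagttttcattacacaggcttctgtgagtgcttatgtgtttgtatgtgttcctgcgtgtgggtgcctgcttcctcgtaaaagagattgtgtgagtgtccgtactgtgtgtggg
Ncam2: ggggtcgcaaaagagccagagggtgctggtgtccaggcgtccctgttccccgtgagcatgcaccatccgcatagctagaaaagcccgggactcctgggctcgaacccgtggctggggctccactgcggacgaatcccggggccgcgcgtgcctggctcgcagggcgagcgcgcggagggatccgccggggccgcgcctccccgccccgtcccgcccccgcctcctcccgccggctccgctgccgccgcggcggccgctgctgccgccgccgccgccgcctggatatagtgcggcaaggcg
Cntn3: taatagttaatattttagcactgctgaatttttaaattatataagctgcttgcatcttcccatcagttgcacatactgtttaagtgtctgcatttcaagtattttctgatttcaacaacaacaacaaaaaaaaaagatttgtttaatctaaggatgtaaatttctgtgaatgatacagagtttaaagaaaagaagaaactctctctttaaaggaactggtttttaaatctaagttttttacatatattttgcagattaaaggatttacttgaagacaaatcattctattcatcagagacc

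The windows shared little in composition. The Ncam2 window had 75.7% G and C with 41 CpG dinucleotides, and 96.7% of the 32851 RefSeq windows had a lower GC share. The Cntn3 window had 27.7% G and C and 0 CpG, with 0.381% of windows lower. The windows of Cntn2, Tenm3 and Lrrc4c had 61.3%, 47.3% and 50.0% G and C, and both Tenm4 windows 52.0% and 52.3%. The median over all windows was 52.7%.

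Cores of factor families known in sensory neurons were searched on both strands: TGTGGT and TGCGGT for RUNX, CCGGAA for ETS, GTGGGCG for EGR and CAGCTG for an E-box. Only the Lrrc4c window held any of them. Its CCGGAA lies at bases 61 to 66 and its TGCGGT at bases 135 to 140 on the opposite strand, and they do not overlap each other. Over all windows, 14.9% held CCGGAA, 6.45% TGCGGT, 16.8% TGTGGT, 7.97% GTGGGCG and 16.3% CAGCTG. A match is a run of letters and not a shown binding site. No match says only that these letters are not in the window.

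The arrays of the groups were not level in all measures of signal. The upper quartiles lay between 6.78 and 6.86 (log2) on MS arrays and between 5.55 and 6.67 on GTO arrays (exact permutation p = 0.1, the smallest that 3 against 3 arrays can give, adjusted p = 0.167 over 5 array measures). The Actb 3' control probe set also read higher on MS arrays, at 13.22 to 13.28 against 12.38 to 13.00 on GTO arrays (exact permutation p = 0.1, adjusted p = 0.167). The array medians ran the other way, at 2.82 to 2.83 on MS arrays and 2.88 to 3.01 on GTO arrays. Gapdh 3' control probe sets overlapped, with means of 14.66 in MS and 14.82 in GTO. Gapdh control probe sets read more at the 3' end than in the middle, a gap that widens with shorter RNA. MS arrays 1, 2 and 3 had gaps of 1.12, 1.36 and 3.58 (log2), and GTO arrays 1, 2 and 3 had gaps of 3.72, 3.41 and 4.22 (exact permutation p = 0.2, adjusted p = 0.25). MS array 3 thus lay with the GTO arrays in this measure. In pooled cells, fewer neurons that express a gene and less RNA per neuron cannot be told apart. Bacterial spike-in probe sets read 1.86 to 2.89, and log2 4 was taken as the level above background.

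For all 6 probe sets the lowest MS array stood above the highest GTO array. Of the 16256 probe sets that reached log2 4 on at least 3 arrays, 9.9% did the same, and all 6 adhesion probe sets passed that filter. The choice of the genes fixed this direction, and nothing is read from the count. The rule of the deposited list takes 1.39% of all probe sets that are no controls, and the 6 are among them by choice. The median log2 difference of the 6 was 3.26 (MS minus GTO), against 0.31 over all tested probe sets. With Cntn2 at its bound as given below, the median of the 6 was 2.99. GTO values under log2 4 of Cntn3, Tenm3 and Tenm4 enter both medians as deposited. With all values under log2 4 raised to that level, the 6 differences ranged from 2.13 to 3.47. In limma, 0.0185% of tested probe sets passed an adjusted p of 0.05 with MS higher, and 0 of the 6 did. At an unadjusted p under 0.05 in limma, 6 of 6 passed, beside 6.48% of all tested with MS higher. By the authors' deposited p-values 5 of 6 were under 0.05, the exception being Cntn2, beside 74% of the deposited list. An ordinary equal-variance p under 0.05 with MS higher was reached by 1.92% of all probe sets that are no controls. Such p-values helped to choose the genes, and nothing is read from the count.

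**Figure D1:**
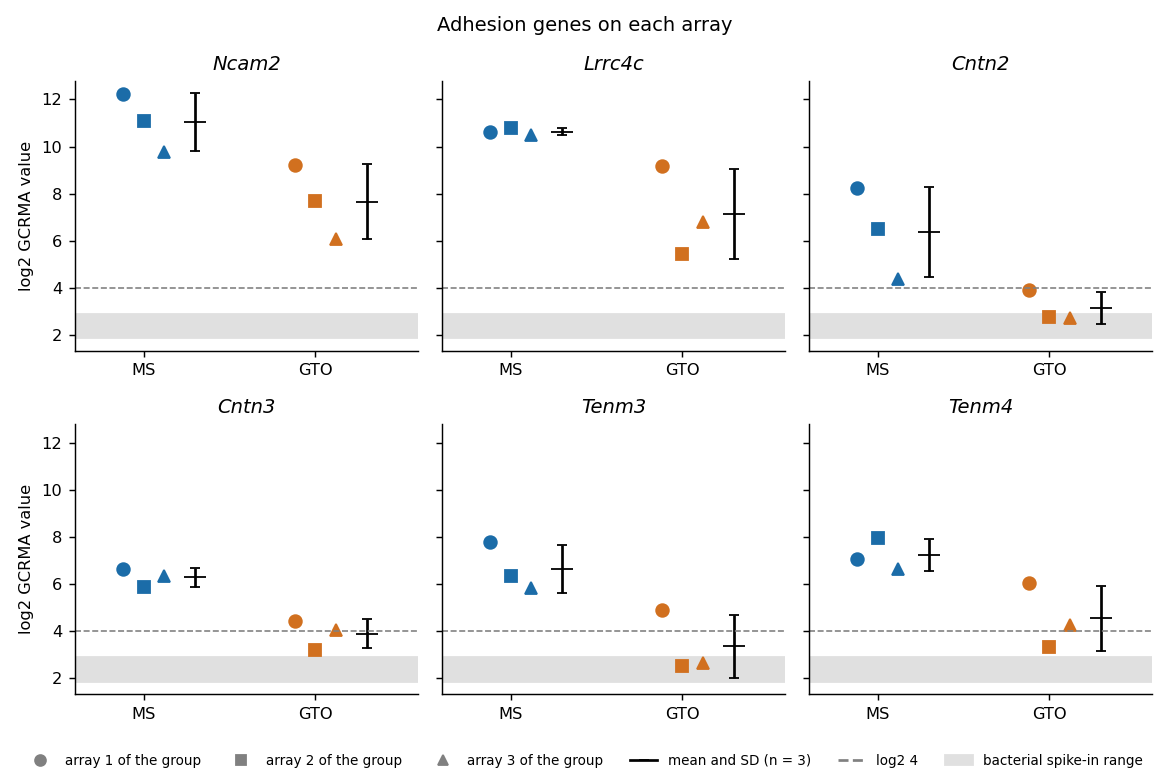
Each panel plots 1 gene's log2 value on the 3 MS arrays (blue, left) and the 3 GTO arrays (orange, right), with the mean and SD of each group (n = 3), the level of log2 4 (dashed) and the range of bacterial spike-in probe sets (grey). In every panel the lowest MS array lies above the highest GTO array, which is always GTO array 1 (under log2 4 for Cntn2).

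Ncam2 encodes an adhesion molecule best known from axons of olfactory sensory neurons, where it binds itself on neighbouring membranes. Its probe set (1425301_at) gave 12.23 (array 1), 11.08 (array 2) and 9.78 (array 3) in MS, against 9.23 (array 1), 7.68 (array 2) and 6.07 (array 3) in GTO (log2). Every array lay well above background, and values spread widely within both groups. MS array 3 and GTO array 1 were separated by 0.55. The MS mean was 11.03 ± 1.23 and the GTO mean 7.66 ± 1.58 (log2, SD, n = 3 each), a difference of 3.37 ± 1.16 (SE). In the authors' deposited table the fold is 10.3 with a p-value of 0.0434, in place 267 of 626 by fold.

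Lrrc4c encodes netrin-G ligand 1, a synaptic adhesion protein whose partner netrin-G1 sits on axons. The probe set (1437201_at) gave 10.61 (array 1), 10.77 (array 2) and 10.47 (array 3) in MS, against 9.19 (array 1), 5.45 (array 2) and 6.80 (array 3) in GTO (log2). The MS arrays were nearly level, and nearly all of the spread lay in GTO, where array 1 stood far above the other two. The MS mean was 10.62 ± 0.15 and the GTO mean 7.15 ± 1.90 (log2, SD, n = 3 each), with a difference of 3.47 ± 1.10 (SE). No array was under log2 4. The authors' deposited table gives a fold of 11.1 and a p-value of 0.0342.

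Cntn2 encodes contactin-2 (TAG-1), found on developing sensory and commissural axons and, in myelinated nerve, beside the nodes of Ranvier, where glia make it too. Its probe set (1450523_at) gave 8.24 (array 1), 6.50 (array 2) and 4.40 (array 3) in MS, against 3.92 (array 1), 2.79 (array 2) and 2.75 (array 3) in GTO (log2). The MS arrays were 3.84 apart on the log2 scale, and the lowest of them stood 0.48 above the highest GTO array. All 3 GTO arrays lay under log2 4, so only a bound can be given. The MS mean of 6.38 ± 1.92 (log2, SD, n = 3) was at least 5.20-fold above that level, while the measured GTO mean was 3.15 ± 0.67. The deposited table of the authors lists a fold of 9.37 and a p-value of 0.0516, the highest p of the 6.

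Cntn3 encodes contactin-3 (BIG-1), a neuronal contactin that promotes neurite growth of rat neurons in culture. Its probe set (1420739_at) gave 6.64 (array 1), 5.86 (array 2) and 6.35 (array 3) in MS, against 4.42 (array 1), 3.20 (array 2) and 4.05 (array 3) in GTO (log2). Both groups were tight, and GTO sat around the level of log2 4 with 1 array below it. The MS mean was 6.28 ± 0.40 and the GTO mean 3.89 ± 0.62 (log2, SD, n = 3 each). The difference of 2.39 ± 0.43 (SE) had the smallest SE of the 6 in the deposited values. The authors' deposited table gives a fold of 5.24 and a p-value of 0.00499, so that the gene stands in place 605 by fold and 114 by p.

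The contactins differed in their spread between arrays. Cntn2 had the widest MS range of the 6 genes and Cntn3 the smallest pooled SD, 0.52 against 1.44 for Cntn2. Over the whole deposited list the pooled SD had a median of 1.13. On MS array 3, where Cntn2 was lowest, Cntn3 read higher than on MS array 2.

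Tenm3 encodes a teneurin that guides matching connections in the visual system and the hippocampus of mice. The probe set (1449315_at) gave 7.80 (array 1), 6.33 (array 2) and 5.84 (array 3) in MS, against 4.91 (array 1), 2.53 (array 2) and 2.66 (array 3) in GTO (log2). GTO array 1 was above log2 4, while GTO arrays 2 and 3 were within the range of the spike-in probe sets. The MS mean was 6.66 ± 1.02 and the GTO mean 3.36 ± 1.34 (log2, SD, n = 3 each), a difference of 3.29 ± 0.97 (SE) that includes those background values. The authors' deposited table gives a fold of 9.81 and a p-value of 0.0274.

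Tenm4 encodes a teneurin known in mice for its part in oligodendrocyte differentiation and myelination of small axons. Its probe set (1455993_at) gave 7.04 (array 1), 7.97 (array 2) and 6.66 (array 3) in MS, against 6.02 (array 1), 3.32 (array 2) and 4.28 (array 3) in GTO (log2). GTO array 1 lay 0.63 below the lowest MS array, and GTO array 2 was under log2 4. The MS mean was 7.22 ± 0.68 and the GTO mean 4.54 ± 1.37 (log2, SD, n = 3 each), with a difference of 2.68 ± 0.88 (SE). The deposited fold of the authors' table is 6.42 with a p-value of 0.0385.

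The genes lay at different distances from the edge of the rule that chose them. The lowest fold inside the list was 5.01 and the highest outside it, at a p-value below 0.08, was 4.9998. By p-value the last listed probe set had 0.0795 and the first left out, at 30.2-fold, 0.0801. Cntn3 was the closest of the 6 to the fold limit and Cntn2 the closest to the p limit. The median of the authors' deposited table is 9.34-fold, and 4 of the 6 genes lie above it. Of these, Cntn2 (9.37-fold) and Tenm3 (9.81-fold) do so with GTO values under log2 4 as deposited. With values raised to log2 4 they were 5.20-fold and 5.12-fold higher in MS. The median also rests on such values, with all GTO arrays under log2 4 for 33.1% of listed probe sets.

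The place of single arrays within each group was not named in the rule, though listed and tested probe sets differed in it. GTO array 1 was the highest GTO array for 6 of 6 genes in the deposited values (for Cntn2 among values all under log2 4), beside 323 of the 626 listed probe sets (51.6%) and 36.4% of tested ones. MS array 3 was the lowest MS array for 5 of 6, the exception being Cntn3, beside 51.8% of listed and 36.8% of tested probe sets. Both held together for 5 of 6, beside 27.3% of listed probe sets and 11.8% of tested ones. GTO array 1 had the highest upper quartile of its group, and MS array 3 had the lowest upper quartile and the widest Gapdh gap of its group. The part of these measures in the result was not tested.

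Against GTO array 1 alone, the MS means were 1.80, 1.43, 1.86, 1.75 and 1.20 higher on the log2 scale for Ncam2, Lrrc4c, Cntn3, Tenm3 and Tenm4. These values correspond to 3.48-fold, 2.69-fold, 3.64-fold, 3.37-fold and 2.30-fold. None of these 5 genes reached 5-fold in that comparison, and Cntn2, under log2 4 on GTO array 1, did so with its bound of 5.20-fold. For all tested probe sets the same count was made with values under log2 4 raised to that level, and 5.31% were at least 5-fold higher in the MS mean than on GTO array 1, or 6.74% as deposited. Against GTO array 2 alone, 5 of 6 genes reached 5-fold on that scale (11.2% of tested), while Cntn3, under log2 4 on that array, was at least 4.87-fold higher in MS. In the values as deposited 6 of 6 did (14.4% of tested). Against GTO array 3 alone, 5 of 6 reached 5-fold on either scale (16.9% of tested with values raised, 20.2% as deposited), with Cntn3 the exception at 4.69-fold.

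**Figure D2:**
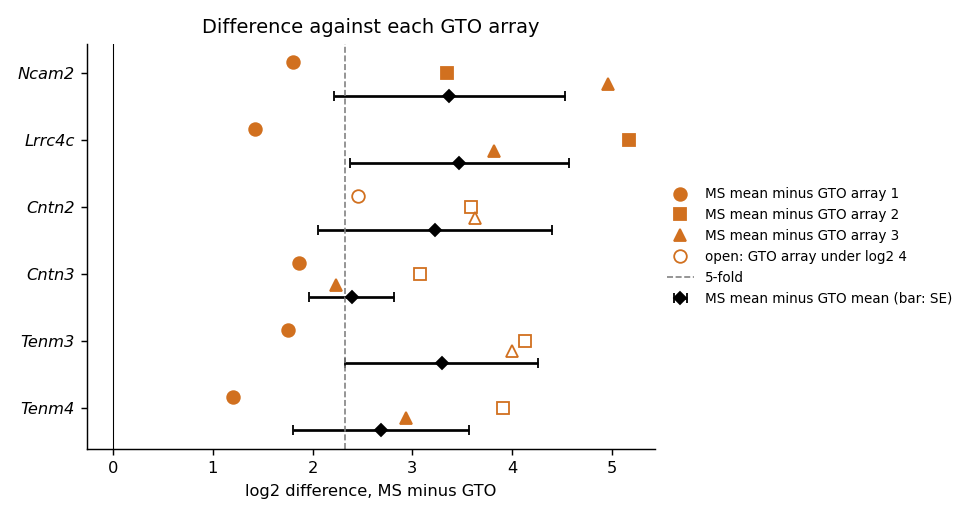
For each gene, orange points give the log2 difference between the mean of the 3 MS arrays and each single GTO array, and the black diamond gives the difference of group means with its SE (n = 3 each). Open symbols mark GTO arrays under log2 4, where the difference is not measured exactly. The filled points for GTO array 1 lie between 1.20 and 1.86, left of the dashed line at 5-fold.

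The spread between GTO arrays set the 6 genes apart from one another. GTO array 1 exceeded the mean of GTO arrays 2 and 3 by 3.07 on the log2 scale for Lrrc4c. The excess was 2.36 for Ncam2, 2.31 for Tenm3 and 2.22 for Tenm4. It was 1.16 for Cntn2 and 0.79 for Cntn3, both around or under log2 4 on the GTO arrays. GTO arrays under log2 4 enter these values for Cntn2, Cntn3, Tenm3 and Tenm4. Over the deposited list the median of this excess was 0.44, with quartiles of -0.14 and 1.74.

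The shape of the values over the 6 arrays, each gene centred on its own mean, was most alike in Ncam2 and Tenm3, with a root mean square difference of 0.56, and Lrrc4c and Tenm4 came next at 0.58. Cntn2 was closest to Tenm3 (0.71) and Cntn3 to Tenm4 (0.77). Family members were less alike, with 0.81 between Tenm3 and Tenm4 and 1.18 between Cntn2 and Cntn3. The least alike were Lrrc4c and Cntn2 at 1.31. The arrays share the group difference that chose the genes, so these values describe shape only, with values under log2 4 taken as deposited.

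Among the other 585 listed probe sets with 1 symbol, the closest to each gene were found by the same measure. Ncam2 lay nearest to Dcun1d2, a factor for cullin neddylation (0.21), Gmds, an enzyme of GDP-fucose synthesis (0.28), and Pik3r1, a regulatory subunit of phosphoinositide 3-kinase (0.31). Lrrc4c lay nearest to Hsd17b12, an enzyme of fatty acid elongation (0.20), Vps37a, a subunit of an endosomal sorting complex (0.30), and Nsg2, a neuronal endosomal protein (0.32). In each of these neighbours GTO array 1 was the highest GTO array. They were picked for the same shape over these arrays, so nothing is read from that order.

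For Cntn2 the closest were the chromatin readers Brd3 (0.27) and Cdyl2 (0.30), and Rwdd3 (0.35), a factor for SUMO conjugation. For Cntn3 they were the small heat shock protein gene Hspb1 (0.18), the sorting receptor gene Sorcs2 (0.24) and Ccdc86 (0.28). Tenm3 was closest to Acsl4, an acyl-CoA synthetase (0.25), Gpr180 (0.33) and Rpn1, a subunit of the oligosaccharyltransferase (0.35). The genes closest to Tenm4 included Hltf, a helicase-like factor (0.35), and Gnai2, an inhibitory G protein subunit (0.35). The median distance to all candidates was 1.12 to 1.30 for the 6 genes. None of these neighbours belongs to the adhesion lists given below. Nectin3 was the only candidate from those lists, so nothing is read from this.

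**Figure D3:**
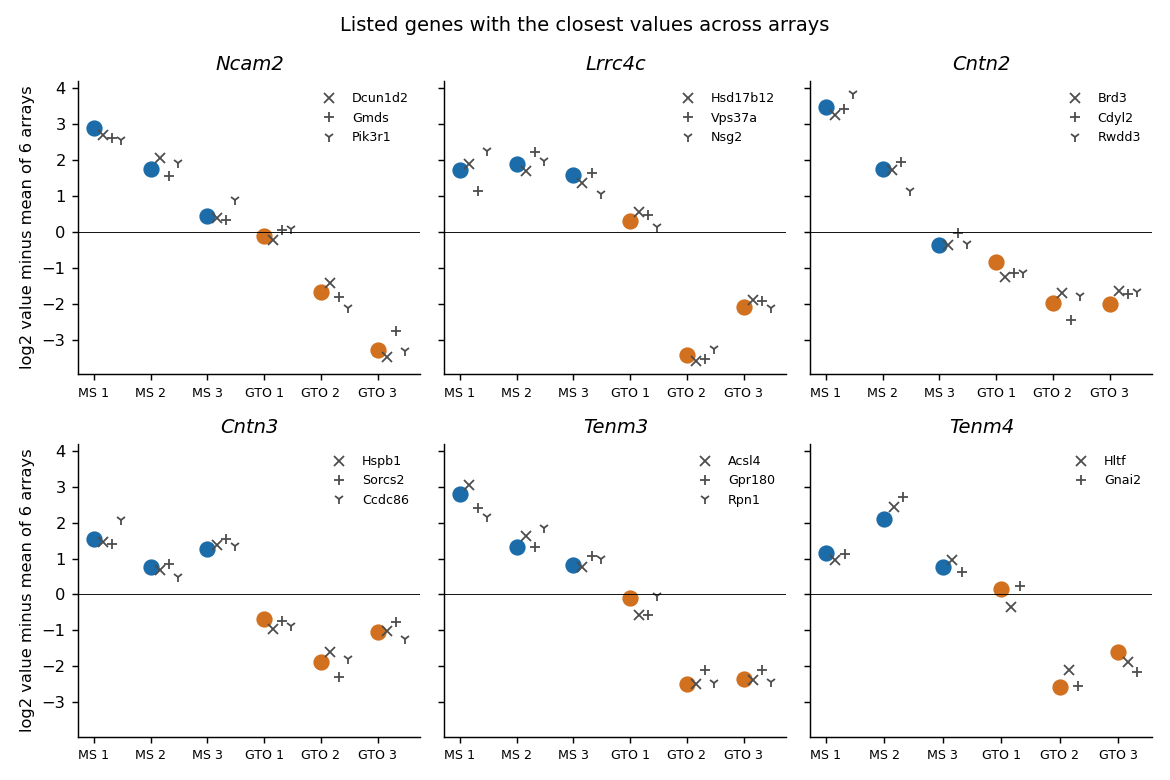
Each panel plots a gene's log2 value on each array minus its mean over the 6 arrays, with MS arrays in blue and GTO arrays in orange, and listed genes among the 3 with the closest values as grey symbols (2 for Tenm4, 3 for each other gene). The grey symbols follow the coloured points within a root mean square difference of 0.18 to 0.35.

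Related adhesion genes were counted on the deposited list from 10 lists of 83 genes. The list held 7 of the 83: the 6 genes above and Nectin3. The 6 were picked for standing on the list, which takes 1.39% of probe sets, so the counts of their families are fixed by that choice. It held 2 of 6 contactins, 2 of 4 teneurins, 1 of 6 genes of the NCAM and L1 family, and 1 of 5 netrin-G and netrin-G ligand genes. It held 1 of 19 other immunoglobulin adhesion genes. It held 0 of 7 contactin-associated proteins, 0 of 7 genes for latrophilins, Adgrl4 and FLRT proteins, and 0 of 6 neurexins and neuroligins. Also absent were all 15 other leucine-rich repeat adhesion genes and all 8 ligands and processing enzymes. Only what was higher in MS could enter the list, and a gene missing from it may be higher in GTO, alike in both or not measured. Absence says nothing of the levels of Cntn1, Tenm1 or the latrophilins.

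Nectin3, listed under its older symbol Pvrl3, encodes an immunoglobulin adhesion protein that pairs with other nectins at cell contacts. Its probe set (1448673_at) gave 10.77 (array 1), 8.82 (array 2) and 7.77 (array 3) in MS, against 7.03 (array 1), 3.64 (array 2) and 5.37 (array 3) in GTO (log2). The groups did not overlap, and MS array 3 and GTO array 1 again faced each other, 0.74 apart. The difference of means was 3.78 ± 1.32 (SE, n = 3), and the authors' deposited table gives 13.7-fold with a p-value of 0.0455. The value of GTO array 2, under log2 4, enters both as deposited. Against GTO array 1 alone the MS mean of Nectin3 was 4.27-fold higher. Its order of arrays, with GTO array 1 highest and GTO array 2 lowest in GTO, was that of Lrrc4c, Cntn3, Tenm3 and Tenm4.

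Contactin-2 and Tenm4 are also known from myelinating glia, so markers of other cells are given beside them. Of 10 Schwann cell markers, 2 stood on the deposited list. Mbp, a myelin protein, gave 6.03 (array 1), 7.18 (array 2) and 5.98 (array 3) in MS, against 3.32 (array 1), 2.49 (array 2) and 2.65 (array 3) in GTO (log2). Cnp, a myelin-associated enzyme, gave 6.37 (array 1), 6.20 (array 2) and 5.51 (array 3) in MS, against 2.14 (array 1), 5.28 (array 2) and 3.01 (array 3) in GTO. Both were higher on all MS arrays, as were 94.6% of listed probe sets. Both were lowest in MS on array 3, as were 5 of the 6 adhesion genes and 51.8% of listed probe sets. Mbp was nearly level on MS arrays 1 and 3 and highest on MS array 2. Nothing is read from these shared places. In GTO, Mbp was under log2 4 on all arrays with its highest value on array 1, and Cnp was above log2 4 only on array 2.

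Of 8 fibroblast markers the matrix gene Sparc was listed, at 7.23, 9.32 and 9.13 in MS (arrays 1, 2 and 3) against 3.20, 4.23 and 3.40 in GTO. It was lowest on MS array 1, where Ncam2, Cntn2, Cntn3 and Tenm3 were highest. That array was the highest MS array for 4 of the 6 adhesion genes, 45.2% of listed and 32.7% of tested probe sets. Nothing is read from these places. Of 8 proprioceptor markers Whrn was listed, at 3.15, 5.11 and 6.61 in MS (arrays 1, 2 and 3) against 2.28 to 2.35 in GTO. Whrn was under log2 4 on MS array 1 and on all GTO arrays and did not pass the filter. The part of glial or fibroblast RNA in the adhesion values was not tested. The other markers of the sensory neuron, proprioceptor, subclass and glial lists are not paired with probe sets in the tables used here, so the labelled cell type could not be checked against them.

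Rescaling the arrays kept all 6 genes higher in MS with no overlap between groups. Quantile normalization gave log2 differences of 1.74 to 3.03 and median centring gave 2.02 to 3.10, against 2.39 to 3.47 in the deposited values. Cntn3 and Tenm4 then fell short of the 5-fold limit, at 3.33-fold and 4.41-fold after quantile normalization and 4.05-fold and 4.96-fold after centring. The other 4 genes met the rule of the list under both. With values under log2 4 raised to that level, 4 of 6 met the rule, Cntn2 failing on its p-value and Cntn3 on its fold (4.36-fold). Tenm3 was 5.12-fold higher in MS on that scale, against 9.81-fold as deposited.

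Leaving out 1 array could not change the direction or the separation of groups, since no gene overlapped with all arrays in. Membership of the list could change and did. Without MS array 1, only Tenm3 met the rule, and without GTO array 3 only Cntn3 did. Without GTO array 2 it was met by Lrrc4c alone, and without MS array 2 by Cntn3 and Tenm3. Without MS array 3 or GTO array 1, 5 of 6 met it, the exceptions being Lrrc4c and Cntn2. In the values as deposited, most of these failures kept at least 5-fold and missed only the p limit, in a comparison with 1 array fewer. The fold as deposited fell below 5 for Cntn3 without MS array 1 or GTO array 2, and for Cntn2 without MS array 1. For Tenm4 the fold did so without MS array 2 or GTO array 2. The log2 difference ranged from 2.05 to 2.65 for Cntn3 over these 6 fits. For Cntn2 the bound against log2 4 was at least 2.73-fold without MS array 1, 4.99-fold without MS array 2 and 10.3-fold without MS array 3. Without MS array 1 or MS array 2, 5-fold is thus not shown for Cntn2.

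**Figure D4:**
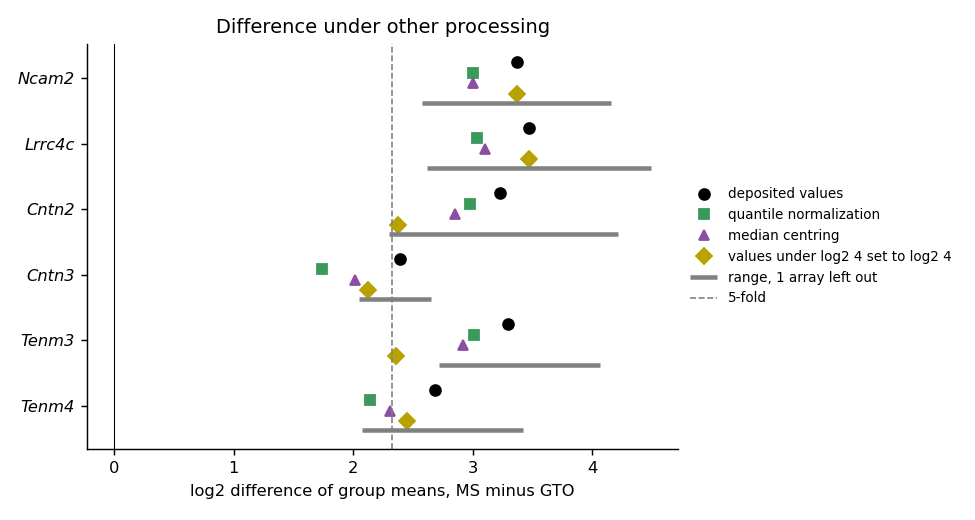
For each gene, symbols give the log2 difference of group means (MS minus GTO) from the deposited values, after quantile normalization, after median centring and with values under log2 4 raised to log2 4, and the grey bar spans the values with 1 array left out. All values lie above 0, those of Cntn2 rest on GTO arrays under log2 4, and Cntn3 and Tenm4 cross below the dashed 5-fold line after either rescaling.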

How the data were processed

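RNA from 3 MS and 3 GTO pools was measured on 6 arrays. The deposited log2 values come from GCRMA and Partek, per the submitters' processing notes, with no version given, and no source used here gives the array annotation or genome build. For each listed probe set the authors deposited a p-value and the linear ratio of MS to GTO, with limits of 5-fold and p below 0.08 per the file headers. Powers of 2 of the group differences returned every deposited fold within 2.1e-05 (relative). Only this list pairs probe sets with genes, so other probe sets of the 6 genes are not used here. The list holds every probe set that met its rule. Any other probe set of the 6 genes on the array thus did not meet it, unless listed without a single symbol. Symbols were updated by Entrez identifier with RefSeq genes of GRCm38.p6 (6 of 6 matched).

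The 64 control probe sets were left out. Probe sets at log2 4 or above on 3 or more arrays were fitted with limma 3.58.1 in R 4.3.3 (lmFit, eBayes, two-sided, Benjamini-Hochberg over 16256), after a check on simulated data. For the rule of the list, p came from an ordinary equal-variance comparison of the log2 values. Where all GTO arrays lay under log2 4, the fold is a bound against log2 4. Samples of 1 group are biological replicates per the labels, with no word on which animals made up each pool, so spreads are those between pools. The number of arrays limits the precision. Median centring used the probe sets that passed the filter. The named genes were the 6 genes, listed genes of the adhesion and marker lists, and the 3 listed genes closest to each of the 6, of which 1 near Tenm4 is not reported here. Members and lists were chosen with earlier results of these data known, and the single GTO arrays were set against MS after the data had been seen.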

Additional observations from a re-analysis of the deposited data

How the results depend on the processing

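All 6 genes kept their direction and the separation of groups under quantile normalization and median centring. Leaving out 1 array could change neither, since no gene overlapped with all arrays in. Raising values to log2 4 could change neither, since every MS value of the 6 lay above that level. The number of the 6 that met the rule of the list ranged from 1 to 5 with 1 array left out: 1 without MS array 1, GTO array 2 or GTO array 3, and 2 without MS array 2. Quantile normalization moved the log2 difference of Cntn3 to 1.74 and the count of probe sets meeting the rule to 400, against 626 in the deposited values. With 1 array left out that count was 438 to 936, and the differences were 2.57 to 4.16 for Ncam2, 2.62 to 4.49 for Lrrc4c, 2.05 to 2.65 for Cntn3, 2.72 to 4.06 for Tenm3 and 2.07 to 3.42 for Tenm4. Against GTO array 1 alone, 1 of 6 was at least 5-fold higher in MS, with log2 differences of 1.80 for Ncam2, 1.43 for Lrrc4c, 1.86 for Cntn3, 1.75 for Tenm3 and 1.20 for Tenm4. Against GTO array 2 alone they were 5.17 for Lrrc4c and, as deposited with that array under log2 4 and so not measured exactly, 3.08 for Cntn3 and 3.91 for Tenm4. Against GTO array 3 alone Ncam2 differed by 4.97. The difference in array level was 0.69 at the upper quartile and -0.11 at the median of the array, where most probe sets lie in the background. In limma, 3 probe sets passed in the main setting, 0 under median centring, 0 with values raised to log2 4, 12 with no filter, 11 with the filter at log2 6, 0 with the replicate number as a block (lowest adjusted p = 0.418), and 0 with any 1 array left out (622 to 1759 at an unadjusted p under 0.05). The split at an unadjusted p under 0.05 was 1053 higher in MS and 242 in GTO, against 683 and 674 after quantile normalization and 742 and 472 after centring, and the median difference over tested probe sets was 0.31, 0.01 and -0.06. Symbols as printed gave 6 adhesion genes on the list, against 7 with updated symbols. Same-numbered arrays deviated from their group means with correlations of -0.06, 0.10 and 0.11. MS arrays 2 and 3 correlated best with the GTO array of the same number, and MS array 1 with GTO array 2 (0.09). These correlations were all low, and the numbers were not taken as pairs. The cause of these changes was not tested.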
